A study of Rattus norvegicus with 9 samples.

Results

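Tent5a, Tent5b and Tiparp are 3 genes whose transcripts were higher 45 min after tetrodotoxin was washed out of silenced rat cortical neurons. They are 3 of the 35522 genes or other named features on the array and were measured by 8 of its 41012 probes: 4 probes of Tent5a (older name Fam46a, RGD1311381 on the array), 1 of Tent5b (older name Fam46b, RGD1308967 on the array) and 3 of Tiparp. The genes were chosen because of their values in these arrays, in all 3 groups and foremost at 45 min. Their levels and differences are therefore given as a description, without a test.

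The arrays were 9 single-colour expression arrays, 3 in each of 3 groups. The labels call them mature neurons: cells dissociated from the cortex of prenatal rats and cultured for 11 to 15 days in Neurobasal, with either B27 or NS21 as the supplement. All 3 groups were kept for 48 h in tetrodotoxin (TTX), which blocks voltage-gated sodium channels and thereby action potentials. Cells of the TTX group were harvested without removal of the drug, and those of W15 and W45 were harvested 15 min and 45 min after it had been washed out with 3 changes of medium. No group that had never been silenced was among the arrays used here, so a level in TTX is not a resting level of active cultures. Firing was not measured on these arrays, and a return of activity cannot be told apart from the washing itself. The labels do not say whether replicates were separate cultures, so the errors and p-values below measure only the spread between these samples, which may be technical.

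Poly(A) polymerases add adenosines to the ends of RNA. Members of the TENT5 family are non-canonical poly(A) polymerases of the cytoplasm, where a longer tail generally protects a messenger RNA and favours its translation. Tent5a is best known from bone, where it acts on messages of secreted proteins such as collagen. Tent5b is a close relative that has been studied less. Tiparp encodes a mono-ADP-ribosyltransferase of the PARP family, which transfers ADP-ribose from NAD+ to proteins. It is named for its induction by dioxin (TCDD), it is a classical target gene of the aryl hydrocarbon receptor (AHR), and its protein feeds back to limit that receptor.

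The promoters are shown because the 3 genes were higher in the same samples, and because the elements bound by CREB, serum response factor and AHR are known and can be looked for. Each sequence is the 250 bases before the annotated start, 5′ to 3′ on the strand of the gene, from RefSeq on the GRCr8 build; all 3 genes were found in that table. They lie at chr8:95109101-95109350 on the minus strand (Tent5a), chr5:150978988-150979237 on the plus strand (Tent5b) and chr2:152063519-152063768 on the plus strand (Tiparp). Capitals mark GCGTG, the core bound by AHR, on either strand, and TATAA, the core of a TATA box.
Tent5a: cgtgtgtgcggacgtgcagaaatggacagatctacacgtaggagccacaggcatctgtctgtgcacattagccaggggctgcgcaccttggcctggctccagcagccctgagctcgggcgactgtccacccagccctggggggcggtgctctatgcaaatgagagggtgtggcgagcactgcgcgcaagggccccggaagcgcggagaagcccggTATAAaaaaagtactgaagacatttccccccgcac
Tent5b: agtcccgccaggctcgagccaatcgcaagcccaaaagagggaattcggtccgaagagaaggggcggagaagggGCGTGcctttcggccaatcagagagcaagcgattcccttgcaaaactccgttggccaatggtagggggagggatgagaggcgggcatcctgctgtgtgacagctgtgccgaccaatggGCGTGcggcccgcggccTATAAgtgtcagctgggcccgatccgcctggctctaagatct
Tiparp: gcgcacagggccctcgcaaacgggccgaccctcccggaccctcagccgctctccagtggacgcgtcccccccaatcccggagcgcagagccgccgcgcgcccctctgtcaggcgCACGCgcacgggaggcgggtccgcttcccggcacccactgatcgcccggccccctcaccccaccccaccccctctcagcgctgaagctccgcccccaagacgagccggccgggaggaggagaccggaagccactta

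The AHR core GCGTG was found on the gene strand of Tent5b at bases 177 to 173 and 59 to 55 before the start, and on the opposite strand of Tiparp, where it reads CACGC, at bases 136 to 132. Of all 33469 promoters of this length, 25.9% held that core on either strand. TATAA, a motif added after these sequences had been read, lay at bases 35 to 31 before the start of Tent5a and 42 to 38 before that of Tent5b, and 24% of promoters held it on either strand. None of the 3 windows held the cAMP response element TGACGTCA (1.59% of promoters), its core TGACG (18.2%), which lies inside it, or the CArG box of serum response factor (1.5%), on either strand. The Tiparp window was 74.8% G and C, and 96.4% of all promoters had a lower content. The windows of Tent5a and Tent5b had 62.0% and 61.6%, against a median of 51.2%. The matches describe letters in a short window and show no binding.

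Levels are given on a log2 scale relative to the 75th percentile of each array's processed signals, so a level of 0 is the 75th percentile and a step of 1 is a doubling of signal. Levels of different probes are not compared, because probes differ in how well they hybridise. No member spot was saturated. Of the 8 member probes, 7 stood well above background on all 9 arrays, and 8 passed the filter on dim probes. The remaining probe, A_42_P605711 of Tent5a, passed through the 45 min group alone.

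Tent5a was read best by its brightest probe, A_44_P1048380, at bases 90522860 to 90522919 of chromosome 8 on the minus strand (rn3 build, XM_217218). Its level on the 3 TTX arrays was -1.73, -2.21 and -2.17. At 15 min it was -1.50, -2.01 and -1.92, and at 45 min it was -0.62, -0.40 and -0.78. All 3 arrays at 45 min thus lay above the 6 others, while the TTX and 15 min arrays overlapped. The mean level was -2.04 ± 0.26 (SD, n = 3) in TTX, -1.81 ± 0.27 at 15 min and -0.60 ± 0.19 at 45 min. The difference from TTX was 0.23 ± 0.19 on the log2 scale (SE, n = 3 per group) at 15 min and 1.44 ± 0.19, or 2.71-fold, at 45 min. From 15 to 45 min the difference was 1.21 ± 0.19.

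The other probes of Tent5a were also higher on all 3 arrays at 45 min than on any TTX array. The plot by probe position shows their differences. With another background correction the 45 min differences of A_44_P160697, A_42_P605711 and the brightest probe were smaller, but that of A_42_P737278 was not. The probe farthest downstream, A_42_P737278, lies 3940 bases from the first. Its levels were -2.02, -2.32 and -2.36 in TTX, -1.79, -2.32 and -2.43 at 15 min, and -0.93, -0.77 and -1.11 at 45 min. Its difference from TTX was 1.29 ± 0.19 at 45 min and 0.05 ± 0.19 at 15 min, so this probe showed next to no difference at 15 min. A_44_P160697, 2941 bases downstream, went from -6.09, -6.13 and -6.26 in TTX to -5.01, -4.10 and -5.08 at 45 min, a difference of 1.43 ± 0.24, with W45 replicate 2 the highest. The dim probe A_42_P605711, 915 bases downstream, stood above background on 1 TTX array, 1 array at 15 min and 3 at 45 min. Its mean at 45 min was 1.18 above that in TTX, a value that rests on TTX and 15 min arrays mostly not above background and that its selection through the 45 min group alone favours. Over the 3 probes above background on all 9 arrays, the differences from TTX lay between 1.29 and 1.44 at 45 min and between 0.01 and 0.23 at 15 min. With the normexp background correction these 3 probes had 1.09, 0.81 and 1.30 at 45 min against TTX from the first to the last, and A_42_P605711 had 0.59. Against 15 min that correction gave 0.80, 0.15 and 1.43, and -0.14 for A_42_P605711, so the dim probes did not keep their size or, in 1 case, their sign.

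**Figure D1:**
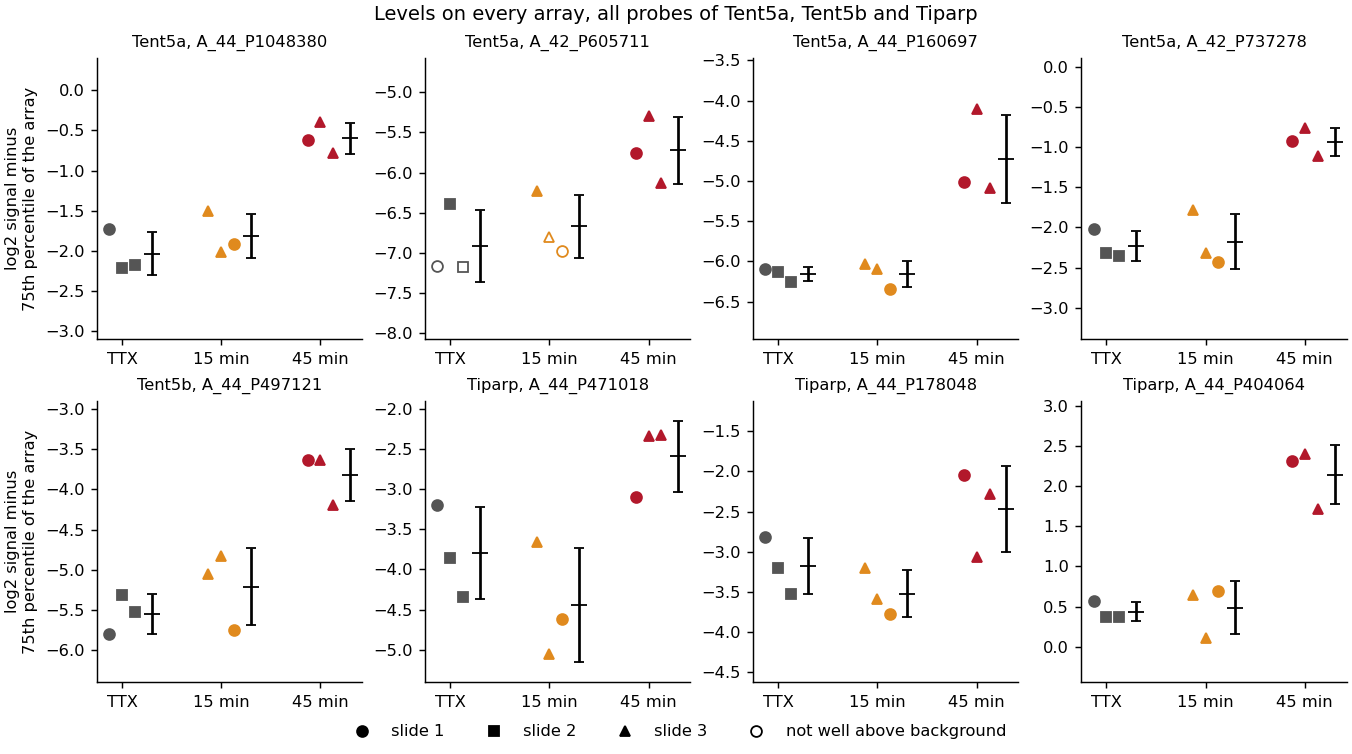
Levels of all 8 probes on every array (log2 signal minus the array's 75th percentile) in TTX and 15 or 45 min after washout, with the mean and SD of 3 arrays beside the points; all vertical axes span the same range of log2 units. The 45 min arrays lie above the TTX arrays for 7 of the 8 probes, and the marker shape gives the slide.

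Tent5b was read by 1 probe, A_44_P497121, at bases 151616225 to 151616284 of chromosome 5 on the minus strand in rn3 (XM_232748). Its signal was dim, 32.6 to 54.7 in TTX, but well above background on every array. Its level was -5.80, -5.31 and -5.53 in TTX, -5.05, -4.83 and -5.75 at 15 min, and -3.63, -3.63 and -4.19 at 45 min. The 45 min arrays lay above all others. At 15 min replicates 1 and 2 lay above the TTX arrays and replicate 3 lay near the lowest of them, so these groups overlapped. The mean went from -5.55 ± 0.25 (SD, n = 3) in TTX to -5.21 ± 0.48 at 15 min and -3.82 ± 0.32 at 45 min. The difference from TTX was 0.33 ± 0.26 (SE, n = 3 per group) at 15 min and 1.73 ± 0.26, or 3.31-fold, at 45 min. The files place this probe on the minus strand in rn3, while RefSeq places Tent5b on the plus strand in GRCr8. Whether the builds differ in orientation there, or the probe lies on the other strand of the gene, was not analysed here. RefSeq also lists a Tent5b pseudogene on chromosome 11, and whether its RNA could bind the probe was not tested.

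A second feature beside the Tent5b probe, not among the chosen members, allowed a test. Probes within 5000 bases of the member probes were listed by position after the data had been read. The feature lies beside a gene chosen for its 45 min level, so its test is no independent support. The probe near Tent5a and that near Tiparp, each on the opposite strand, stood well above background on 0 and 2 arrays. Neither passed the filter. The expressed-sequence tag CF107866 has a probe on the same rn3 strand at bases 151614984 to 151615043 of chromosome 5, with 1181 bases between it and the Tent5b probe. Its levels were -4.85, -4.50 and -4.56 in TTX, -4.71, -4.26 and -4.61 at 15 min, and -2.96, -2.57 and -2.90 at 45 min. Its log2 level rose by 1.83 ± 0.17 (SE, n = 3 per group), or 3.55-fold, at 45 min against TTX (limma adjusted p = 0.00232) and by 1.71 ± 0.17 against 15 min (limma adjusted p = 0.00531). At 15 min its difference was 0.11 ± 0.17 (limma adjusted p = 0.997). With slide as a block the rise against TTX was 1.92 and no longer passed (limma adjusted p = 0.14). That against 15 min did (limma adjusted p = 0.021). With replicate number as a block both passed (limma adjusted p = 0.00145 and 0.00422). With the normexp background correction neither passed. The rise was 1.41 against TTX (limma adjusted p = 0.694) and 0.85 against 15 min (limma adjusted p = 0.692), beside medians of all genes of 0.12 and -0.20. Whether this tag is part of the Tent5b transcript was not analysed here. The bright probe of LOC683263, on the opposite strand near the same place, differed by 0.04 ± 0.16 at 45 min (limma adjusted p = 0.981 over all probes).

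**Figure D2:**
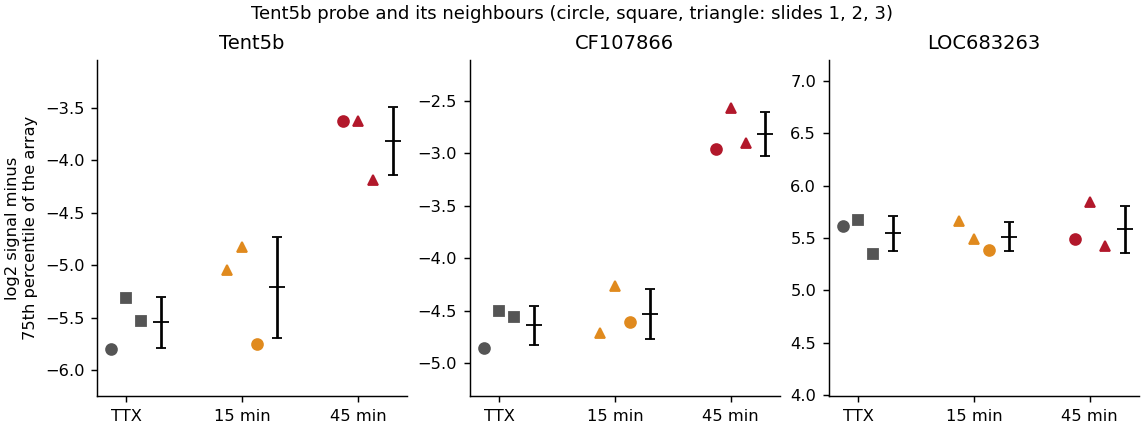
Levels on every array (log2 signal minus the array's 75th percentile) of the Tent5b probe and of both probes within 5000 bases of it in rn3, with mean and SD of 3 arrays; marker shapes give the slide. Tent5b and CF107866 are highest on the 3 arrays at 45 min, and LOC683263 overlaps between all groups.

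Tiparp was read best by A_44_P404064, the probe farthest downstream, at bases 155288446 to 155288505 of chromosome 2 on the plus strand in rn3 (XM_227217). Its level was 0.57, 0.37 and 0.37 in TTX, 0.65, 0.11 and 0.70 at 15 min, and 2.31, 2.40 and 1.72 at 45 min. The TTX and 15 min arrays overlapped, and every array at 45 min lay above both groups. The mean was 0.44 ± 0.11 (SD, n = 3) in TTX, 0.49 ± 0.32 at 15 min and 2.14 ± 0.37 at 45 min. The difference from TTX was 0.05 ± 0.22 (SE, n = 3 per group) at 15 min and 1.70 ± 0.22, or 3.26-fold, at 45 min.

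The 2 upstream probes of Tiparp agreed less well with each other and with this one. A_44_P471018, 23069 bases upstream of the brightest probe, read -3.20, -3.86 and -4.34 in TTX, -3.66, -5.05 and -4.62 at 15 min, and -3.10, -2.34 and -2.33 at 45 min. Its lowest array at 45 min was only 0.11 above its highest TTX array. A_44_P178048, which begins at base 155286980, read -2.82, -3.20 and -3.52 in TTX, -3.20, -3.59 and -3.77 at 15 min, and -2.05, -3.07 and -2.28 at 45 min. Here W45 replicate 2 fell inside the TTX range, although the same array was the highest of its group for A_44_P404064, so this was the only member probe whose TTX and 45 min arrays overlapped. The differences from TTX at 45 min were 1.21 ± 0.40 and 0.71 ± 0.29 for these probes. At 15 min they were -0.64 ± 0.40 and -0.34 ± 0.29, below 0 where the downstream probe gave 0.05, with arrays that overlapped TTX. The differences from 15 to 45 min were 1.85 ± 0.40, 1.05 ± 0.29 and 1.66 ± 0.22 from the upstream to the downstream probe. The exons these probes lie in were not analysed here.

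**Figure D3:**
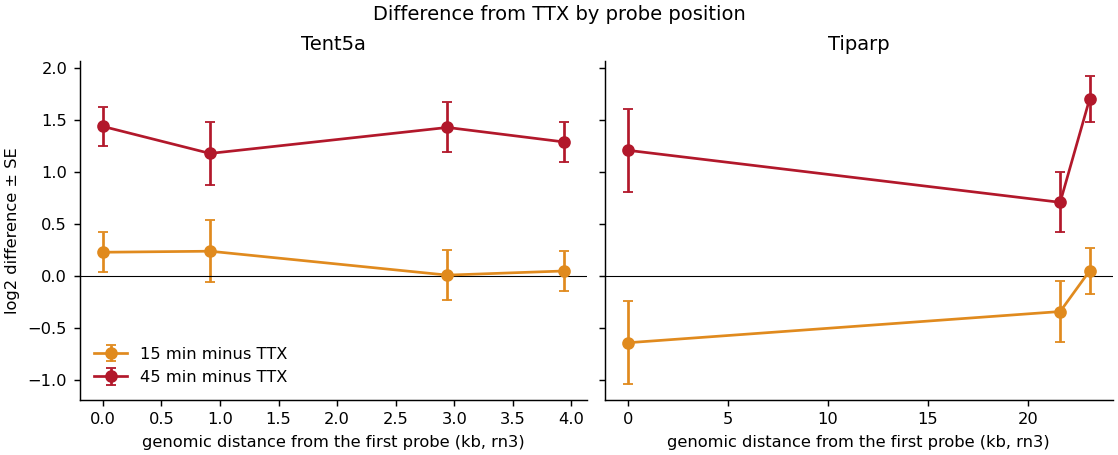
Log2 difference from TTX (mean ± SE, 3 arrays per group) for the 4 Tent5a and 3 Tiparp probes against genomic distance in kb downstream of each gene's first probe. At 45 min the Tent5a probes lie between 1.29 and 1.44, apart from the dim probe 915 bases downstream at 1.18, and the Tiparp probes between 0.71 and 1.70, and at 15 min both upstream Tiparp probes lie below 0.

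For 7 of the 8 probes the lowest array at 45 min exceeded the highest TTX array, as was so for 8.35% of the 30321 probes kept. The lowest array at 45 min exceeded the highest at 15 min for 8 of 8, against 4.03% of probes. The lowest array at 15 min exceeded the highest in TTX for 0 of 8, against 9.85% of probes. The dim Tent5a probe, kept through the 45 min group alone, is among the 7 and the 8. As the genes were chosen for these values, the counts describe them and support nothing further. For the brightest probe of each gene the 45 min level was the highest. The 15 min arrays overlapped TTX, with mean differences of 0.05 to 0.33 that set no order between TTX and 15 min. For Tiparp that difference was -0.15 with normexp. By size of the difference at 45 min against TTX, Tent5b ranked 33rd, Tiparp 34th and Tent5a 44th from the top among 25785 genes or features.

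Slides and groups were not balanced. Each group had 1 array on slide 1, while the other 2 TTX arrays were on slide 2 and the other 2 of each washout group on slide 3. On slide 1 alone, the differences at 45 min against TTX were 1.11 for Tent5a, 2.17 for Tent5b and 1.74 for Tiparp, and those at 15 min were -0.18, 0.06 and 0.13. With slide as a block, the differences at 45 min against TTX were 1.07 ± 0.29, 1.81 ± 0.41 and 1.76 ± 0.35. In that fit TTX meets the washout groups on slide 1 alone, through its replicate 1. Its partner there is replicate 1 at 45 min but replicate 3 at 15 min, so the 15 min comparison crosses replicate numbers. The difference from 15 to 45 min on slide 3, with 2 arrays per group, was 1.17 for Tent5a, 1.03 for Tent5b and 1.68 for Tiparp. The model-based normexp background correction, which adds 50 to every signal, gave 1.09, 1.08 and 1.67 at 45 min against TTX, and for the dim Tent5b probe 0.72 at 15 min. Under every one of these alternatives the 45 min value of each gene's brightest probe stayed above 0. Against 15 min, however, Tent5b had only 0.36 ± 0.37 with normexp, which cannot be told from 0. The normexp values include a shift common to many genes. With it the median of all genes was -0.20 at 45 against 15 min. Against TTX that median was 0.12 at 45 min and 0.21 at 15 min.

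The neuronal label was checked against marker genes. All 8 neuronal markers passed the filter, as did 30321 of all 41012 probes. Their summed log2 level was 7.72 to 7.99 in TTX, 7.73 to 8.12 at 15 min and 7.71 to 8.07 at 45 min. The cultures also held signal of other cells. All 7 astrocyte markers were measured, with a summed level of 6.21 to 6.45 in TTX and 6.08 to 6.50 at 45 min, and all 8 oligodendrocyte lineage markers with 5.56 to 5.77 and 5.64 to 5.90. All 4 markers of dividing cells passed, with 3.52 to 3.77 in TTX and 3.69 to 3.85 at 45 min. So did all 4 of fibroblasts and meninges, with 0.34 to 0.46 and 0.35 to 0.70. Of 7 microglial markers 4 passed the filter, and Aif1, Cx3cr1 and Itgam did not. Of the 50 markers of 9 cell types measured, limma called 0 in each of the 3 comparisons, and at an unadjusted p under 0.05 it found 2 higher and 1 lower at 45 min against TTX, where 3.77% of all genes were higher and 2.66% lower by that threshold. In such bulk samples the number of cells of a type and the RNA per cell cannot be told apart, and which cells expressed the 3 genes was not tested.

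The immediate early genes chosen for reference give the time course that the members can be set beside. Fos, an AP-1 transcription factor, rose by 4.87 ± 0.33 (limma adjusted p = 0.00165) at 15 min and by 6.61 ± 0.33 (limma adjusted p = 1.91e-05) at 45 min. Egr1, a zinc-finger factor, rose by 2.11 ± 0.18 (limma adjusted p = 0.00672) and 4.19 ± 0.18 (limma adjusted p = 8.69e-06). Junb rose by 3.23 and 5.11. Npas4, a neuronal factor not above background in TTX, was 19.7-fold and 200.4-fold above the dimmest signals well above background on the TTX arrays. These folds are not firm lower bounds, since normexp gave smaller log2 differences of 2.55 and 5.44. Nr4a1, an orphan nuclear receptor, had 0.45 ± 0.18 (limma adjusted p = 0.997) at 15 min and rose by 4.20 ± 0.18 at 45 min (limma adjusted p = 8.69e-06). Arc, a synaptic protein, had 1.69 ± 0.24 at 15 min (limma adjusted p = 0.177) and rose by 5.32 at 45 min. Limma thus called 4 of these 6 genes higher at 15 min, where it called 0.0233% of all genes higher, and 6 of 6 at 45 min, where it called 0.186% higher. With slide as a block the 4 calls at 15 min were lost, with limma adjusted p from 0.135 to 0.466, while the differences were about as large: 5.51 for Npas4, 5.16 for Fos, 3.21 for Junb and 2.29 for Egr1. In that comparison the SE was larger (0.57 for Fos). The calls of the 6 genes at 45 min against TTX held under every alternative tested. At 15 min, normexp also ended the calls of Npas4 (2.55, limma adjusted p = 0.209) and Junb (2.96, limma adjusted p = 0.0714), as did leaving out TTX replicate 2 or W15 replicate 2 for Junb and Egr1 and TTX replicate 3 for Junb, with limma adjusted p from 0.053 to 0.0781. The 3 members differed from TTX by 0.05 to 0.33 at 15 min and by 1.44 to 1.73 at 45 min. Whether this timing differs from that of the reference genes was not tested.

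The genes with the most similar profiles were found by the root mean square difference between log2 profiles over the 9 arrays, each centred on its own mean. Over all genes with a symbol the median of that difference was 0.68 for Tent5a, 0.81 for Tent5b and 0.84 for Tiparp. Nearest to Tent5a were Dusp5, a phosphatase that inactivates ERK (0.24), the deubiquitinase Otud1 (0.25), Ptgs2, the inducible cyclooxygenase (0.26), Tiparp (0.26) and the F-box protein gene Fbxo33 (0.27). Nearest to Tiparp were Dusp5 (0.23), the neurotrophin Bdnf (0.25), Tent5a (0.26), the neuropeptide precursor Vgf (0.31) and the nuclear receptor Nr4a2 (0.32). Nearest to Tent5b were Kcnf1, a silent potassium channel subunit (0.24), the transcription factors Maff (0.25) and Nfil3 (0.27), Ppp1r15a, which directs a phosphatase to eIF2 alpha (0.29), and Dusp5 (0.31).

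Dusp5 was thus among the 5 nearest profiles of all 3 members, with differences from TTX of 0.04 at 15 min and 1.61 at 45 min. Tent5a and Tiparp were close to each other, with 3 genes nearer to Tent5a than Tiparp was. Tent5a and Tent5b, which belong to 1 family, were less close, at 0.37. There were 30 genes nearer to Tent5a than Tent5b was, and 9 nearer to Tent5b than Tent5a was. Tent5b and Tiparp differed by 0.41. The genes listed differed from TTX by -0.15 to 0.41 at 15 min and by 0.99 to 1.94 at 45 min. They were picked for likeness on the same arrays, so these values describe the choice.

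**Figure D4:**
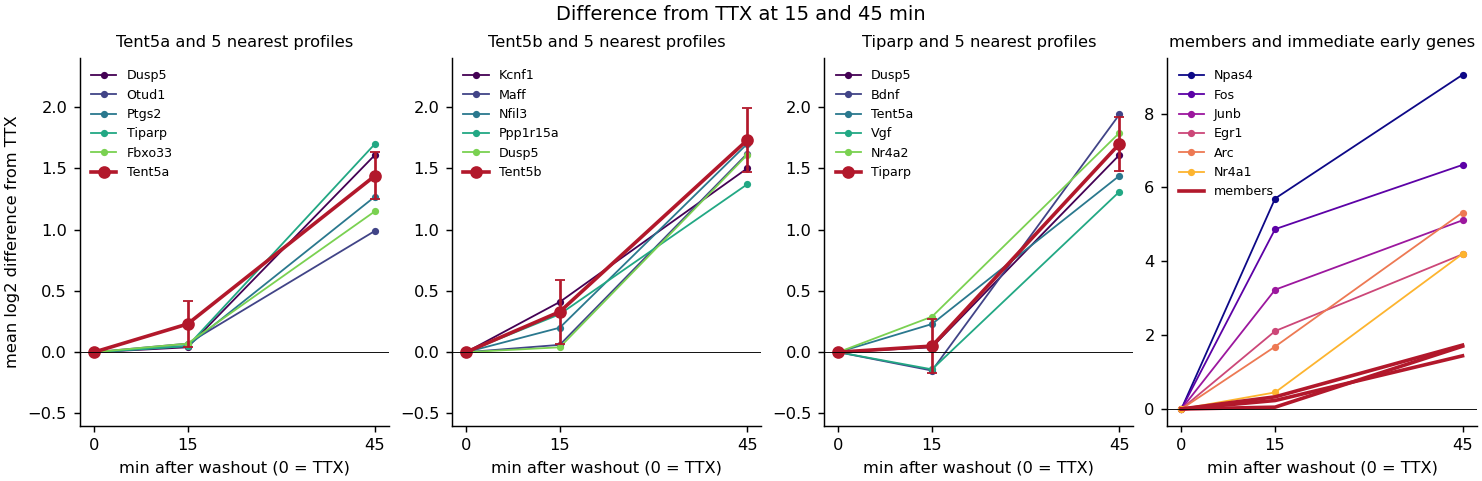
Mean log2 difference from TTX at 15 and 45 min after washout for each member (red, ± SE, 3 arrays per group) with its 5 nearest profiles, and for the 3 members beside 6 immediate early genes on a wider axis. The members differ from TTX by 0.05 to 0.33 at 15 min and 1.44 to 1.73 at 45 min, and Fos by 4.87 and 6.61.

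The genes that act in the same steps as the 3 members were followed in 8 lists, with 75 of 91 genes measured. Limma called 0 of the 75 in any of the 3 comparisons. At an unadjusted p under 0.05 it found 0 higher and 1 lower at 15 min against TTX, where 2.49% of all genes were higher and 0.911% lower by that threshold. It found 2 higher and 4 lower at 45 min against TTX, against 3.77% and 2.66% of all genes. At 45 against 15 min it found 3 higher and 4 lower, against 2.69% and 3.94%, and after adjustment 0.12% of all genes were called higher and 0.0116% lower. The smallest adjusted p at 45 min against TTX was 0.418, and the median difference was 0.01, beside 0.05 over all genes.

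Among the other terminal nucleotidyltransferases, 5 of 9 were measured and 0 were called (median -0.05 at 45 min). Tent4b, which adenylates nuclear RNAs, had 0.22 ± 0.12 (limma adjusted p = 0.797), Tut4, a uridylyltransferase, had -0.20, and Tent4a and Mtpap, the mitochondrial poly(A) polymerase, had -0.06 and -0.05. The closest relatives of the members were too dim to follow: Tent5c stood well above background on 4 of 9 arrays, and Tent5d on 0 of 9. The 15 canonical poly(A) polymerases, poly(A)-binding proteins and cytoplasmic polyadenylation factors measured had a median of 0.07. Papolg had -0.45 ± 0.38, Cpeb3 -0.26, Cpeb1 0.19 and Pabpc4 0.16.

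The list of deadenylases, which shorten the tails that TENT5 enzymes extend, also holds proteins that are part of their complexes or bind them. Its median was -0.05 over 17 genes. Cnot9, a subunit of the CCR4-NOT complex, had the largest difference of this list, -0.65 ± 0.16 at 45 min against TTX (limma adjusted p = 0.418), with all 3 arrays at 45 min below all 3 TTX arrays, as was so for 3.37% of all genes. Cnot11, of the same complex, had -0.62 ± 0.26, Pan2, a deadenylase of another complex, -0.54 ± 0.20 and Cnot4, a ubiquitin ligase that binds the complex, 0.47 ± 0.27. None of these passed. Against 15 min, Cnot11 had -0.67 ± 0.26 (limma adjusted p = 0.748) and passed under 1 alternative, without W45 replicate 1 (limma adjusted p = 0.0489).

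On the side of Tiparp, 11 of 15 other PARP family genes were measured and 0 were called (median 0.02 at 45 min). Parp3 had 0.62 ± 0.23 at 45 min against TTX (limma adjusted p = 0.725), with its 3 arrays at 45 min above those in TTX, as was so for 8.29% of all genes. Parp4 had 0.26, Tnks, a tankyrase, 0.15 and Parp16, which sits in the endoplasmic reticulum, -0.14. Of 7 measured genes listed under removal of ADP-ribose, not all of which need have that activity, 0 were called (median -0.08). Nudt9 had -0.51 ± 0.34, Adprhl1 0.30, Parg, which degrades poly(ADP-ribose), -0.22 and Macrod1, a mono-ADP-ribosyl hydrolase, 0.16. The 9 genes of NAD+ synthesis and use had a median of -0.20, with Nadsyn1, a NAD+ synthetase, at -0.38 ± 0.16 (limma adjusted p = 0.768), Sirt1 -0.25, Cd38 -0.21 and Nmnat1 -0.20.

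The AHR receptor itself stood well above background on 0 of 9 arrays. Its partners Arnt and Arnt2 had 0.06 and 0.02 at 45 min, and its chaperone Hsp90ab1 had 0.34 ± 0.12 (limma adjusted p = 0.688). Of the 6 AHR target enzymes that passed the filter 0 were called, with a median of 0.10 that counts Cyp1a1. Cyp1a1, the target most used as a read-out of the receptor, was kept through the TTX group alone. It stood above background on 1 of 3 arrays at 45 min, so its difference of -0.21 was not well measured. Cyp1b1 had 0.15, Aldh3a1 0.24 and Ugt1a6 0.14.

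**Figure D5:**
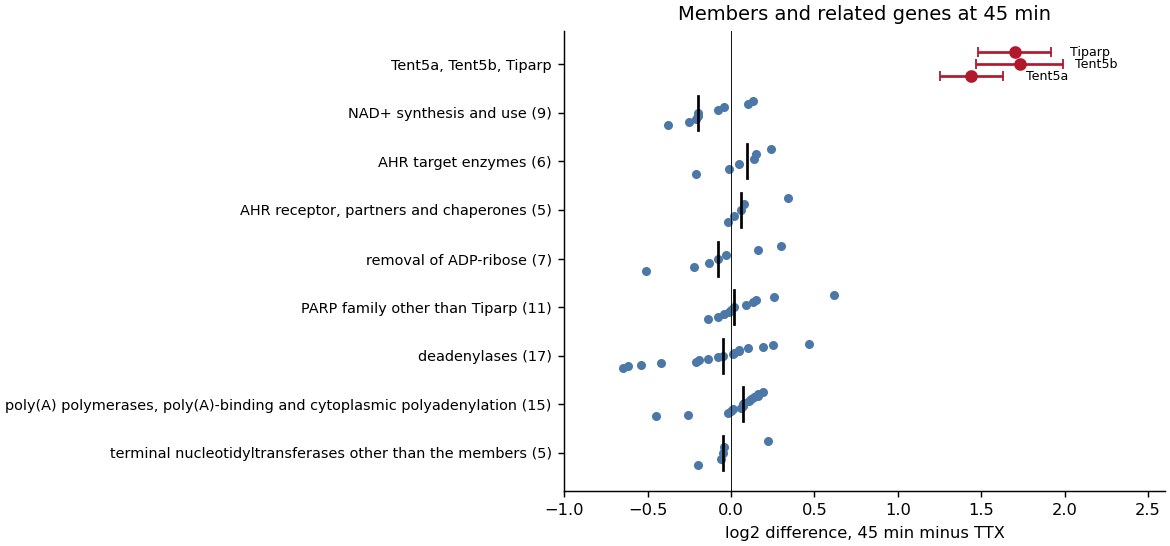
Log2 difference at 45 min against TTX for each measured gene of 8 lists (points; black bars are list medians, numbers of genes in brackets) and for the brightest probe of each member (red, ± SE, 3 arrays per group). The list genes lie between -0.65 and 0.62, and the 3 members between 1.44 and 1.73.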

How the data were processed

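Messenger RNA of 9 samples was measured on Agilent rat arrays of design 014879. Each labelling used 500 ng of total RNA and the dye Cy3, per the labels. Per the file headers, the authors took the images through Feature Extraction 9.5.3.1; the submitters' processing notes give 9.5. The deposited intensity of a spot is its signal with background subtracted and spatial trend removed; arrays were not scaled to each other. The value table the authors deposited held identical intensity values (largest difference 0). Probe positions refer to the rn3 build.

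From these, log2 processed signals minus the array's 75th percentile (signals of 1563 to 2526) were computed. Control spots (1639) and spots marked as outliers (49 to 111 per array) were left out, and spots of a probe averaged. A probe was kept (30321 were) where the 3 arrays of 1 or more groups all showed it well above background; 72.4 to 77.9% of probes stood above background per array. Probes were named by accession, symbol or synonym through the RefSeq table of GRCr8. The brightest of a gene's kept probes stood for the gene, giving 25785 genes or features. Limma 3.58.1 in R 4.3.3 was fitted to all 9 arrays with a mean per group, two-sided, and a gene was called at an adjusted p (Benjamini-Hochberg) under 0.05. With 3 arrays per group, precision is limited by their number. The fit was tested on simulated data.

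Named are the members, up to 4 genes of each list with the largest difference at 45 min, the reference genes and the 5 nearest profiles per member. Members and lists were chosen with earlier results of these data known. Same-numbered arrays of TTX and the washout groups deviated together from their group means (correlations over genes of 0.122 to 0.389), while W15 and W45 replicate 1 had 0.063. Samples of the same number may thus be paired, which the labels do not state. The main fit did not use the numbers. Alternatives were other background corrections, scalings, filters and probe rules, slide or replicate number as a block, and leaving out each array.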

Additional observations from a re-analysis of the deposited data

How the results depend on the processing

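For the brightest probe of each member, or the mean of its probes, the differences at 45 min against TTX and against 15 min stayed above 0 under every alternative run. That of Tent5b against 15 min with normexp was 0.36 ± 0.37, so it cannot be told from 0. Of the other probes, A_42_P605711 of Tent5a had -0.14 at 45 against 15 min with normexp. Values that moved by more than the SD between replicates were as follows. With normexp, Tent5a had 1.09 and Tent5b 1.08 at 45 min against TTX, 0.80 and 0.36 against 15 min, and Tent5b had 0.72 at 15 min. The median of all genes with normexp was 0.12, -0.20 and 0.21 in these comparisons, in that order. Without scaling between arrays, Tent5a had 1.17 at 45 min against TTX, where the median of all genes was -0.21. With slide as a block Tent5a had -0.14 at 15 min and 1.07 at 45 min. On slide 1 alone Tent5a had -0.18 at 15 min and 1.11 at 45 min, and Tent5b had 2.17 against TTX and 2.11 against 15 min. As the mean of its 3 probes, Tiparp had -0.31 at 15 min and 1.21 at 45 min. The cause of these shifts was not tested.

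Leaving out each array in turn gave at 45 min against TTX 1.34 to 1.59 for Tent5a, 1.60 to 1.91 for Tent5b and 1.58 to 1.91 for Tiparp. Against 15 min it gave 1.11 to 1.36, 1.12 to 1.58 and 1.47 to 1.87, and at 15 min against TTX 0.07 to 0.38, 0.14 to 0.60 and -0.06 to 0.23. The list genes called at 45 against 15 min numbered 0, and 1 without W45 replicate 1. The replicate block left the members' differences as they were (SE 0.16 for Tent5a, 0.20 for Tent5b and 0.22 for Tiparp) and called 0 list genes; 47 genes in all were called at 45 min against TTX with it and 54 without. Among single genes named, 1 called value changed sign, that of Ptgs2 at 45 against 15 min with normexp (-0.04), and so did 184 values not called, counted over genes, comparisons and alternatives. The count of all genes called at 45 min against TTX was 22 with the slide block, 23 with normexp, 31 without scaling, 36 without the filter and 31 with only the groups compared. It ranged from 29 to 159 on leaving out 1 array (159 without W45 replicate 1, 80 without W45 replicate 3).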
